A study of Mus musculus with 20 samples.

Results

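The response of brown adipose tissue (BAT) to 4 h of cold in mice that lack C/EBP beta in fat was taken from 10 of the 20 mRNA-seq libraries of the series. They are the 5 libraries of adipose-specific CEBPB knockout mice stressed by cold for 4 h (KO_cold) and the 5 libraries of knockout mice kept at room temperature (KO_RT). Both groups carried the knockout, so that temperature is what the labels set apart between them. The other 10 libraries, wild-type mice under the same 2 conditions (WT_RT and WT_cold, 5 each), entered the model and are used where the cold response of the knockout is set against that of the wild type. The labels name no Cre driver, strain, sex, age or depot, and they do not say that the 5 libraries of a group come from separate animals. Each p therefore measures the spread between libraries, which may be technical. Since the tissue is bulk, a change in the number of cells of a type and a change in RNA per cell cannot be told apart.

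BAT burns fatty acids and glucose for heat through the uncoupling protein Ucp1. In the cold, sympathetic nerves release noradrenaline, beta-adrenergic receptors on the brown adipocyte raise cAMP, and protein kinase A then acts on lipolysis and, through CREB and its relatives, on transcription. C/EBP beta is one of the transcription factors that drive adipocyte differentiation, and it is itself a target of cAMP signalling in this tissue. C/EBP alpha and PPAR gamma, which act with and after it, maintain the genes of the mature fat cell.

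The 10 libraries held 27.07 to 40.87 M gene counts, of which mitochondrially encoded genes took 29.1% to 36.0%. Values are CPM, gene counts scaled by library size, and a change is the log2 fold change of KO_cold over KO_RT ± SE from the edgeR fit. Cebpb (ENSMUSG00000056501, chromosome 2, 167688915 to 167690418, plus strand in GRCm38) checked the genotype. It was at 0.488, 0.856, 0.751, 0.516 and 0.208 CPM in KO_RT replicates 1 to 5 and at 1.61, 2.16, 2.27, 1.79 and 1.78 CPM in KO_cold replicates 1 to 5, against 75.5 to 130.4 CPM in WT_RT and 108 to 167 CPM in WT_cold. The knockout libraries thus all lay far below every wild-type library, and within them Cebpb rose 3.41-fold in the cold (edgeR adjusted p = 1.49e-05). No value here tells remaining transcript in adipocytes from transcript of other cells. The tissue label fits the level of Ucp1, 5029 to 7322 CPM in KO_RT, and the summed level of 10 brown adipocyte markers, 15258 to 18485 CPM in KO_RT and 21025 to 23152 CPM in KO_cold. These markers did not rise as a class: 3 rose and 5 fell in the cold (median log2 change -0.19). Their mean log2 CPM was 8.36 in KO_RT and 8.42 in KO_cold (exact permutation p = 0.389).

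Other markers moved with temperature. The mean log2 CPM of the skeletal muscle markers, of which 16 of 19 tested fell and 1 rose, was 3.41, 1.73, 4.64, 4.49 and 0.817 in KO_RT replicates 1 to 5 and -1.94 to -1.65 in KO_cold (exact permutation p = 0.00794, the smallest that 5 against 5 libraries can give, adjusted p = 0.0225 over 17 library measures). Their summed level ranged from 144 to 791 CPM in KO_RT and from 128 to 160 CPM in KO_cold, where Ckm, Myh4 and Myh7 had 0 counts. KO_RT replicates 1, 3 and 4 held most of the muscle RNA. The second principal component of the 10 libraries, with 7.44% of the variance, set KO_RT replicates 2 and 5 (27.7 and 24.8) apart from these (-25.9 to -11.4). On it the KO_cold libraries, all low in muscle markers, lay between -12.3 and 14.2, and what this component follows was not tested. The B cell marker mean fell from -0.524 ± 0.172 to -1.69 ± 0.265, and the endothelial mean rose from 4.48 ± 0.0898 to 4.88 ± 0.0794, each at the same p (log2 CPM, SD, n = 5). The fibroblast and progenitor mean rose from 4.54 ± 0.138 to 4.85 ± 0.0742 and the white adipocyte mean fell from 1.48 ± 0.169 to 0.82 ± 0.187, also at that p. Of 14 tested fibroblast and progenitor markers only 5 rose (35.7%) and none fell, with a median change of 0.05. Their summed levels overlapped, at 790.6 to 1062.0 CPM in KO_RT and 969.1 to 1089.0 CPM in KO_cold. The part of muscle RNA in the other results was not tested beyond 2 refits that are quoted below. One holds the mean of the muscle markers as a covariate (the muscle-adjusted fit), and one leaves out KO_RT replicates 1, 3 and 4. Since the muscle marker mean did not overlap between KO_RT and KO_cold, the muscle-adjusted fit cannot fully separate muscle RNA from temperature. A call that ended in it is not by itself a sign of muscle RNA.

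**Figure D1:**
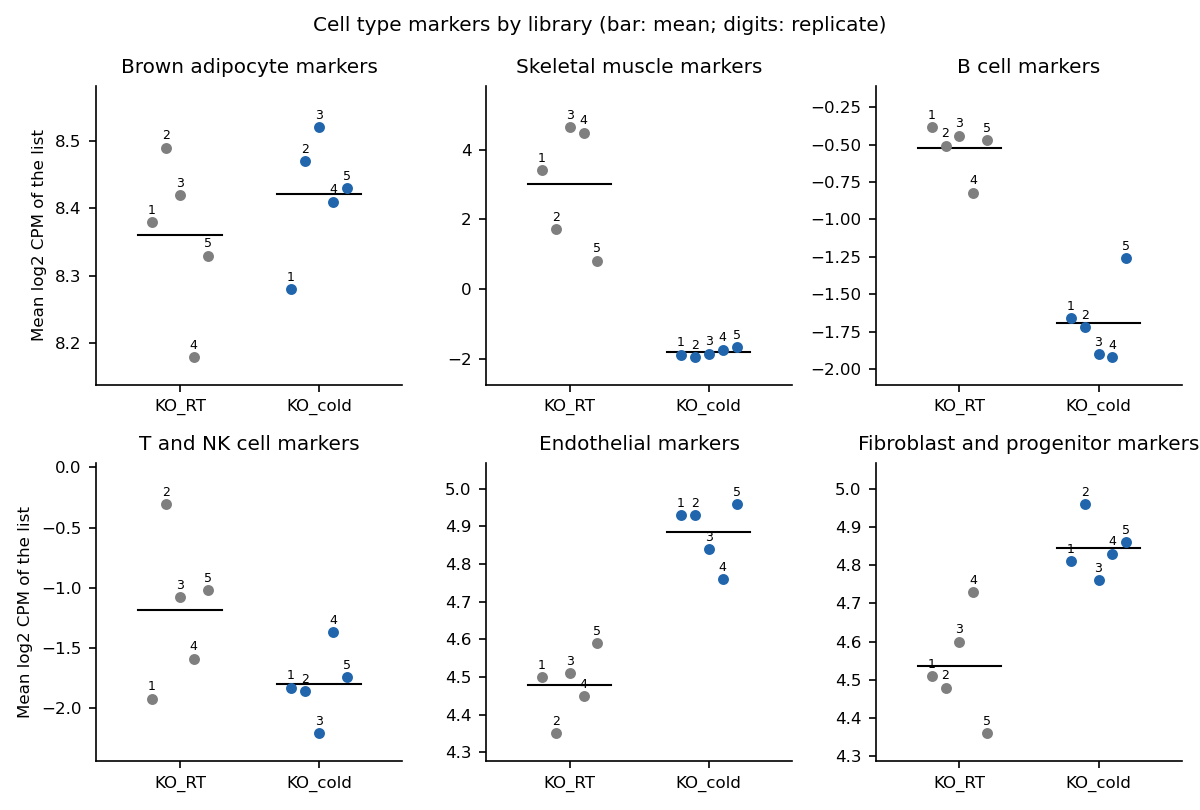
Mean log2 CPM of 6 marker lists (y axis, one panel per list) in the 5 KO_RT and 5 KO_cold libraries (x axis), 1 point per library with its replicate number, and a bar at the group mean. The skeletal muscle markers lie between 0.817 and 4.64 in KO_RT and between -1.94 and -1.65 in KO_cold, while the brown adipocyte markers overlap.

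In the main fit, most of the genes tested differed between KO_cold and KO_RT. Of 15233 genes tested, 59.2% passed the test (adjusted p under 0.05): 4195 genes (27.5%) rose and 4824 genes (31.7%) fell. Counts of list members from the main fit given below are to be read against these shares. Genes called with no overlap between the 5 KO_RT and 5 KO_cold libraries made up 21.5% of all genes on the rising side and 23.0% on the falling side. At least 2-fold changes were found in 759 genes that rose and 1524 that fell, and at least 4-fold changes in 191 and 297. The median change over all genes tested was -0.047 on the log2 scale, and the first principal component, with 64.3% of the variance, held the KO_RT libraries between -58.5 and -40.5 and the KO_cold libraries between 47.7 and 51.4. The 15 genes with the largest fall, among those with at least 5 CPM and no overlap between groups, were all genes of striated muscle, led by the myosin heavy chain Myh4, the muscle creatine kinase Ckm and Xirp2. In the muscle-adjusted fit, 3226 genes rose and 3447 fell. Without KO_RT replicates 1, 3 and 4, 3787 rose and 3804 fell. Counts of list members from these 2 refits are to be read against these totals, which are lower than the 4195 and 4824 of the main fit. A smaller count in a refit thus partly follows the smaller number of genes called in it. Without these 3 libraries Myh4, Ckm and Xirp2 were not called (adjusted p = 0.0835, 0.144 and 0.0847), although their fitted log2 changes stayed at -12.0, -9.91 and -9.53, values that depend on the prior count where cold libraries had 0 counts. Myh4 was at 82.7, 19.1, 153, 148 and 8.73 CPM in KO_RT replicates 1 to 5.

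**Figure D2:**
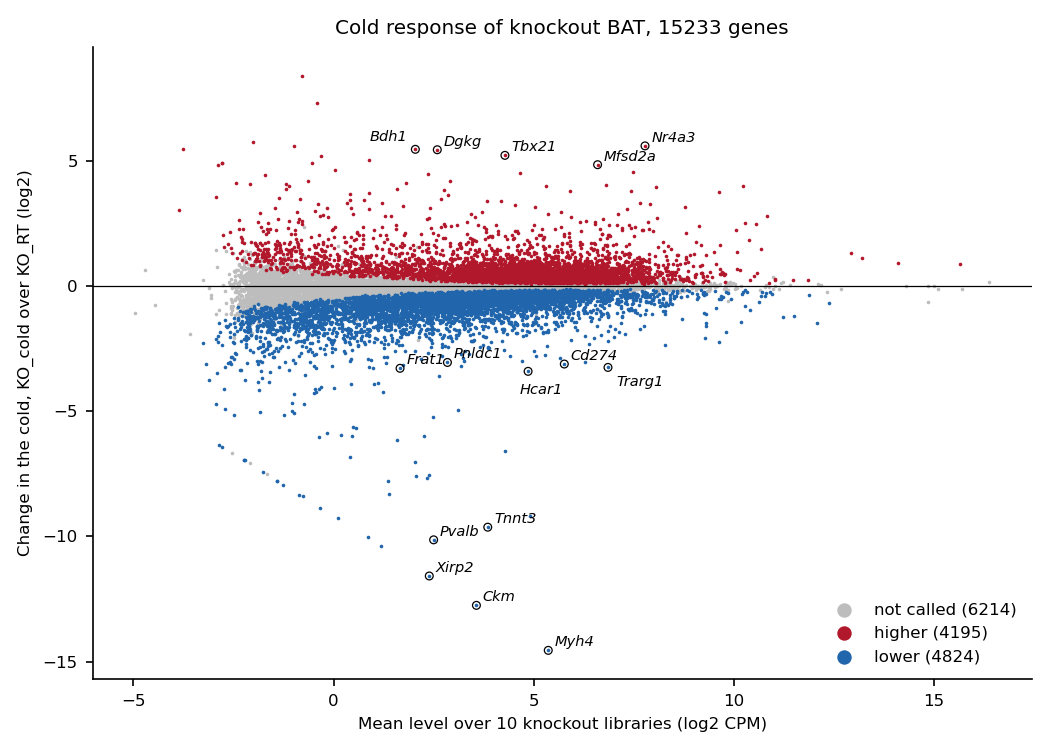
Change in the cold in knockout BAT (log2 fold change, y axis) against mean level over the 10 knockout libraries (log2 CPM, x axis) for the 15233 genes tested. Points are coloured by the call (4195 higher, 4824 lower), and named genes are the 5 leading genes that rose, 5 of the muscle genes that fell and 5 of the steady genes that fell. The fitted change of a muscle gene at 0 counts in the cold depends on the prior count and is no measure of its size.

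The genes that rose most were led by immediate early genes, which respond to cAMP and growth signals without new protein synthesis. Of 27 tested immediate early genes, 22 rose (81.5%, against 27.5% of all genes) and 2 fell, with a median change of 1.67. All members of the NR4A family of orphan nuclear receptors, which bind DNA without a known circulating ligand, were among the 15 leading genes. Nr4a3 (chromosome 4, 48045153 to 48086447, plus strand) was at 21, 2.76, 9.73, 2.79 and 7.39 CPM in KO_RT and 333, 388, 419, 473 and 542 CPM in KO_cold (49.4-fold higher, log2 change 5.61 ± 0.51, edgeR adjusted p = 7.34e-08). Nr4a1 was at 22.6, 6.79, 14.9, 3.76 and 14.5 CPM in KO_RT and 129, 162, 193, 290.2 and 281 CPM in KO_cold (16.8-fold, 4.07 ± 0.572, edgeR adjusted p = 1.1e-05). Nr4a2 was at 25.9, 19, 26.1, 19.1 and 24.5 CPM in KO_RT and 228, 367, 300.2, 269 and 433 CPM in KO_cold (13.9-fold, 3.80 ± 0.302, edgeR adjusted p = 1.22e-08). In each of these 3 genes the lowest cold library lay above the highest room temperature library. Nr4a2 was the most even of them at room temperature, and KO_RT replicate 1 was the highest for Nr4a3 and Nr4a1.

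The 250 bases before the RefSeq start of the 3 NR4A genes (GRCm38.p6) are shown because each holds 4 copies of TGACG, the half-site of the cAMP response element to which CREB binds. Capitals mark TGACG or, where the half-site lies on the other strand, CGTCA.
Nr4a1, chr15:101266596-101266845, plus strand: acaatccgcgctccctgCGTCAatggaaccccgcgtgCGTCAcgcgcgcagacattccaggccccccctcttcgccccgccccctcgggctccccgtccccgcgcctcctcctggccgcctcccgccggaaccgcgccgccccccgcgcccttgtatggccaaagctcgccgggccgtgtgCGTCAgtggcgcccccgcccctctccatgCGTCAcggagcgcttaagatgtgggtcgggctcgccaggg
Nr4a2, chr2:57124004-57124253, minus strand: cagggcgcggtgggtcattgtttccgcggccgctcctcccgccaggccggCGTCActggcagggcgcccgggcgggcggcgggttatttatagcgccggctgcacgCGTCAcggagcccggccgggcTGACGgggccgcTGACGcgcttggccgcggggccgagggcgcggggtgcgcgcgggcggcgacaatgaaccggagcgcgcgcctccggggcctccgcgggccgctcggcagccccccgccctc
Nr4a3, chr4:48045055-48045304, plus strand: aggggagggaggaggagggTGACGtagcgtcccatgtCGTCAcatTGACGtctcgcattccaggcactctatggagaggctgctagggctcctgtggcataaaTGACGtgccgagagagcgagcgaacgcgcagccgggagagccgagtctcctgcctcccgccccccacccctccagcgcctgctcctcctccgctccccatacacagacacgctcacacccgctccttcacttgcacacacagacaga
The half-site was found on either strand in 17.8% of 32851 promoter windows of this length, and 4 or more copies were found in 0.137% of them. The sites begin 233, 213, 69 and 40 bases before the start in Nr4a1, 200, 144, 123 and 111 bases before it in Nr4a2, and 231, 213, 205 and 147 bases before it in Nr4a3. The gene start of Nr4a3 given above, from GENCODE M21, lies inside its window, which a RefSeq start places. Its site at 147 bases therefore lies within the gene as given above. Of the 28 immediate early genes listed, 21 had a window and 14 of these held the half-site, against 19.8% of 27025 genes. A gene counts if any of its windows holds the motif, and the window with most copies is shown. The full element TGACGTCA, which contains the half-site on both strands, was found in 1.5% of all windows and 1.8% of genes. Of the listed genes, Btg2, Dusp1 and Maff held it. A match describes these letters and shows no binding.

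The other immediate early genes fell into AP-1 factors, their relatives and phosphatases. Atf3, a stress-induced repressor of the CREB family, was at 2.88, 1.23, 2.9, 1.46 and 1.99 CPM in KO_RT and 45.1, 48.3, 39.6, 51.8 and 55.1 CPM in KO_cold, a rise of 22.9-fold (edgeR adjusted p = 2.55e-09). Arc, known as a synaptic immediate early gene, was at 0.455 to 0.952 CPM in KO_RT and 11.2 to 17.9 CPM in KO_cold (18.5-fold). The small MAF factor Maff rose from 3.12 ± 1.33 to 33.3 ± 2.68 CPM (10.7-fold) and the AP-1 subunit Fosl2 from 27.6 ± 7.11 to 157 ± 34.1 CPM (5.7-fold), both with no overlap between groups. Fos itself rose 4.48-fold but only to 1.57 to 3.06 CPM. Among the phosphatases that switch off MAP kinases, Dusp1 rose 3.19-fold to 91.3 ± 12.9 CPM, whereas Dusp4 fell 2.26-fold to 22.6 ± 6.37 CPM (edgeR adjusted p = 0.000556). Egr1, Egr2 and Myc did not pass the test; Egr1 was at 3.98 to 11.4 CPM in KO_RT and 5.92 to 19.7 CPM in KO_cold. Fosl1 rose 4.94 on the log2 scale, a value that was 2.0 when both strands were counted.

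**Figure D3:**
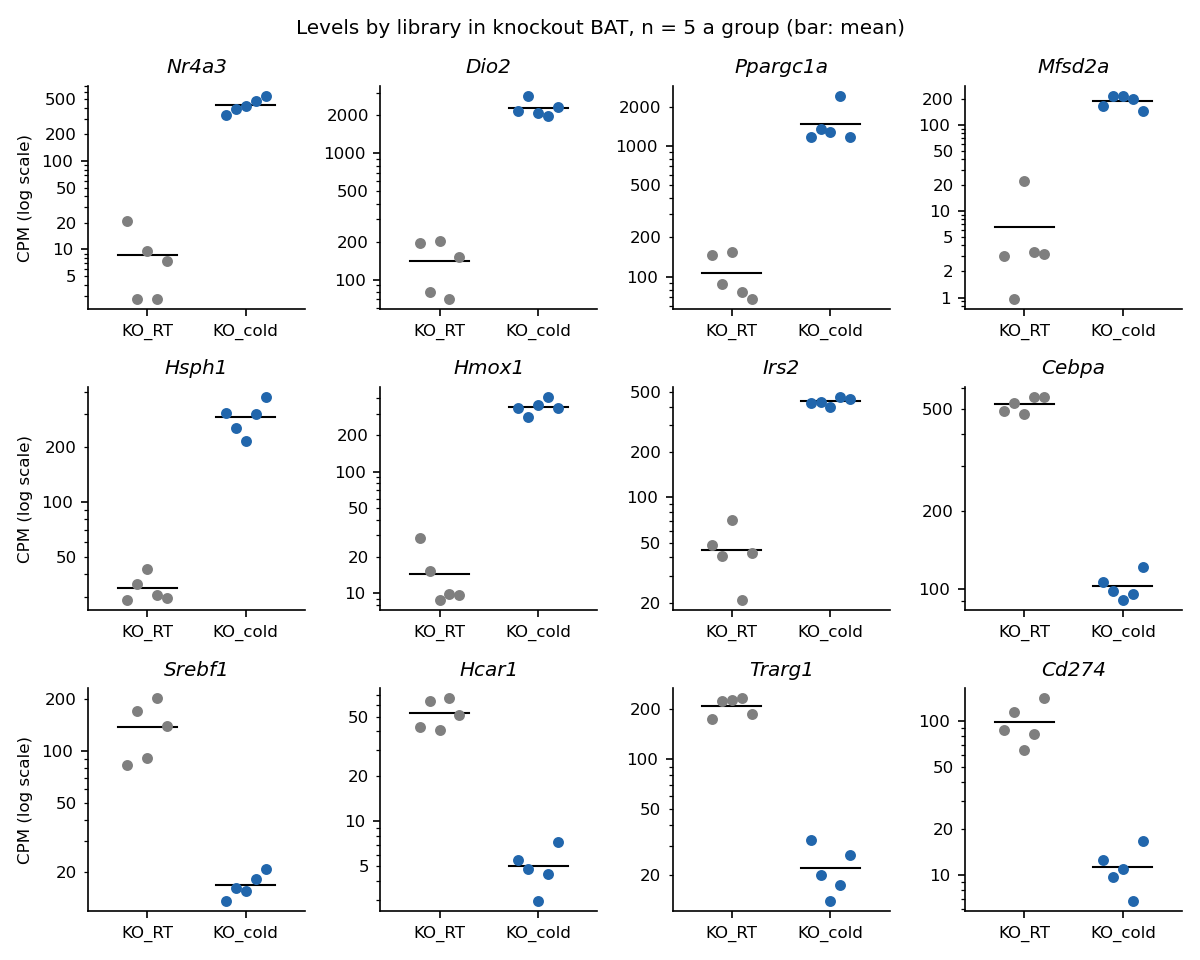
Level in CPM (y axis, log scale, one panel per gene) of 12 genes in the 5 KO_RT and 5 KO_cold libraries (x axis), 1 point per library and a bar at the group mean. In all 12 genes the groups do not overlap, as in 21.5% and 23.0% of all genes (called higher and lower); Nr4a3, Dio2, Ppargc1a, Mfsd2a, Hsph1, Hmox1 and Irs2 are higher in the cold, and Cebpa, Srebf1, Hcar1, Trarg1 and Cd274 are lower.

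Upstream of these genes, the receptors and enzymes of the cAMP pathway moved in both directions. Of 34 tested members 18 rose (52.9%) and 9 fell (26.5%), beside 27.5% and 31.7% of all genes (median 0.24). Adrb3, the main beta-adrenergic receptor of rodent adipocytes (chromosome 8, 27225776 to 27250616, minus strand), was at 112, 129, 86.9, 91 and 79.3 CPM in KO_RT and 28.3, 13.7, 15.3, 30.1 and 24.7 CPM in KO_cold, a fall of 4.45-fold (log2 change -2.15 ± 0.217, edgeR adjusted p = 1.62e-07). The alpha 1 receptor Adra1a fell 1.98-fold and Adrb1 fell 1.45-fold, the latter with overlapping groups and a call that ended in the muscle-adjusted fit, where its log2 change was -0.57 (adjusted p = 0.0552) against -0.54. The adenylyl cyclase Adcy3 rose from 279 ± 50.7 to 876 ± 67.2 CPM (3.14-fold). Of the protein kinase A subunits, the regulatory Prkar1a rose 2.27-fold (253 to 315 CPM in KO_RT, 536 to 678 CPM in KO_cold), while the regulatory Prkar2b fell 1.94-fold and the catalytic Prkaca fell 1.61-fold, all without overlap. Among other members that rose, the salt-inducible kinase Sik1, which holds back CREB coactivators, rose 5.15-fold to 311 ± 39.5 CPM, the repressor gene Crem rose 3-fold, the cAMP phosphodiesterase Pde4d rose 2.13-fold, and the scaffold Akap12 rose 4.25-fold.

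Of 20 thermogenic and brown adipocyte genes, 9 rose (45.0%) and 7 fell (35.0%), beside 27.5% and 31.7% of all genes (median -0.10). Dio2, the deiodinase that makes active thyroid hormone inside the cell, was at 195, 80, 202, 70.4 and 152 CPM in KO_RT and 2181, 2838, 2094, 1965 and 2316 CPM in KO_cold (16.3-fold higher, log2 change 4.03 ± 0.29, edgeR adjusted p = 3.28e-09). Ppargc1a, the coactivator PGC-1 alpha of mitochondrial genes, was at 148, 87.6, 156, 77.1 and 67.8 CPM in KO_RT and 1167, 1347, 1276, 2407 and 1172 CPM in KO_cold, 13.7-fold higher (edgeR adjusted p = 1.88e-08), with KO_cold replicate 4 the highest. Ucp1 (chromosome 8, 83290352 to 83298452, plus strand) was at 11756 to 13632 CPM in the cold, 2.18-fold above room temperature and without overlap. The fatty acid elongase Elovl3 rose 4.67-fold, glycerol kinase Gk 2.59-fold and the creatine kinase Ckb 2.34-fold, and the Ckb call ended in the muscle-adjusted fit (log2 change 0.85, adjusted p = 0.164). The transcription factor Ebf2, which marks brown precursors, fell from 99.4 ± 14.7 to 32.5 ± 2.47 CPM (3.06-fold) and the estrogen-related receptor Esrrg fell 2.7-fold. Zic1, a marker of brown fat, rose from 8.51 ± 0.698 to 11.8 ± 1.68 CPM.

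Genes of fatty acid supply moved in both directions. Among 17 genes of uptake and binding, 9 rose and 7 fell (median 0.16), and 4 fell both in the muscle-adjusted fit and without KO_RT replicates 1, 3 and 4. Lpl, the lipase that frees fatty acids from lipoproteins in capillaries, was at 4922, 4201, 4505, 3985 and 4647 CPM in KO_RT and 9809.5, 11415, 11886, 10846 and 11522 CPM in KO_cold (2.49-fold, edgeR adjusted p = 1.37e-09), and Gpihbp1, which anchors it to the vessel wall, rose 1.78-fold. Mfsd2a, a carrier of lysophospholipids with docosahexaenoic acid, was at 3, 0.963, 22.5, 3.34 and 3.21 CPM in KO_RT and 165, 212, 214, 199.7 and 143 CPM in KO_cold; KO_RT replicate 3 stood above the other room temperature libraries, and all cold libraries lay above it. The acyl-CoA synthase and transporter Slc27a2 rose 2.48-fold, whereas Slc27a1 fell 2.19-fold and the lipoprotein receptor Vldlr fell 2.28-fold. Of 19 genes of lipolysis and lipid droplets, 12 fell and 5 rose (median -0.42). Lipe, the hormone-sensitive lipase, fell from 823 ± 75.1 to 397 ± 93.4 CPM (2.07-fold), Pnpla3 fell 2.65-fold, and the droplet coat Plin3 fell from 71.1 ± 6.38 to 24.9 ± 5.29 CPM (2.85-fold). The coat protein Plin2 rose 1.62-fold, a call that ended in the muscle-adjusted fit with a log2 change of 0.70 (adjusted p = 0.0516) against 0.70. In that fit 2 genes of the droplet list rose and 6 fell.

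The genes of fatty acid and triglyceride synthesis fell as a group: 14 of 23 tested members fell (60.9%, against 31.7% of all genes) and 2 rose, with a median change of -1.11. Srebf1, the transcription factor that drives lipogenic genes, was at 82.8, 172, 91.7, 203 and 140.1 CPM in KO_RT and 13.5, 16.1, 15.5, 18.2 and 20.6 CPM in KO_cold, a fall of 8.23-fold (log2 change -3.04 ± 0.302, edgeR adjusted p = 1.68e-07). The carbohydrate-responsive factor Mlxipl fell 2.62-fold and Thrsp, a lipogenic response gene, fell from 1311 ± 373 to 278 ± 28 CPM (4.71-fold). Fatty acid synthase Fasn was at 7193, 9323, 5619, 6169.9 and 3527 CPM in KO_RT and 1391, 2468, 1544, 2251 and 3846 CPM in KO_cold, with KO_RT replicate 5 below KO_cold replicate 5, and ATP citrate lyase Acly was at 1598, 2507, 856, 1397 and 552 CPM in KO_RT and 299, 458, 364, 327 and 523 CPM in KO_cold. In the muscle-adjusted fit, calls of Fasn, Acly and acetyl-CoA carboxylase Acaca ended (log2 changes -1.03, -1.41 and -1.33, adjusted p = 0.18, 0.0746 and 0.0743), and 9 genes of the list fell in place of 14. Without KO_RT replicates 1, 3 and 4 the list held 14 genes that fell and 1 that rose. The 2 enzymes that close triglyceride synthesis parted: Dgat1 rose 2.63-fold (154 to 192 CPM in KO_RT, 311 to 561 CPM in KO_cold) and Dgat2 fell 2.67-fold (1299 to 1871 CPM in KO_RT, 487 to 729 CPM in KO_cold). The stearoyl-CoA desaturase Scd1 was at 35905 ± 6321 CPM in KO_RT and 22991 ± 8497 CPM in KO_cold and did not pass the test (edgeR adjusted p = 0.0521), although it did in 5 of 18 alternatives.

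Of 23 genes of cholesterol synthesis and uptake, 13 fell (56.5%) and 3 rose (13.0%), beside 31.7% and 27.5% of all genes (median -0.53). In the muscle-adjusted fit 1 rose. Dhcr7, the last enzyme of the synthesis pathway, fell from 14.8 ± 2.18 to 5.64 ± 0.434 CPM (2.62-fold). The cholesterol exporter Abca1 fell 3.4-fold, with 153 to 215 CPM in KO_RT and 48.2 to 56.6 CPM in KO_cold.

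Of 24 genes of mitochondrial and peroxisomal fatty acid oxidation, 3 rose and 11 fell (median -0.20), and the largest fall was that of peroxisomal Acaa1b, 2.23-fold. In the muscle-adjusted fit 1 gene of this list rose and 3 fell, and without KO_RT replicates 1, 3 and 4 the counts were 2 and 4. Bdh1, which interconverts the ketone bodies, stood apart: it was at 0.122, 0.214, 0.0341, 0.182 and 0.327 CPM in KO_RT and 7.4, 8.08, 7.88, 11.9 and 5.01 CPM in KO_cold (45.9-fold, edgeR adjusted p = 6.97e-07). Among the ketone body genes, the monocarboxylate transporter Slc16a1 rose 1.5-fold, and over all 9 members of that list 3 rose and 3 fell. Of 12 acyl-CoA thioesterases, 5 rose and 1 fell; several are near-identical copies among which reads may be split, and their single values are left aside.

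In glucose handling, 11 of 25 genes of uptake and glycolysis rose and 5 fell (median 0.19); 2 fell in the muscle-adjusted fit and 3 without KO_RT replicates 1, 3 and 4. The transporter Slc2a1 (GLUT1) was at 5.06, 5.75, 5.7, 6.13 and 5.2 CPM in KO_RT and 12.4, 16.3, 17.4, 14.7 and 17.7 CPM in KO_cold (2.82-fold, edgeR adjusted p = 4.87e-10), and the phosphofructokinase Pfkp rose 2.99-fold to 415 ± 59 CPM. Slc2a4, the insulin-regulated GLUT4, was at 316 ± 37.3 and 342 ± 71 CPM and did not pass the test, while Trarg1, a regulator of GLUT4 traffic, was at 174, 224, 228, 234 and 187 CPM in KO_RT and 32.6, 20, 14, 17.5 and 26.4 CPM in KO_cold, 9.48-fold lower (edgeR adjusted p = 7.69e-09). Pdk2, a kinase that shuts pyruvate dehydrogenase, fell 1.66-fold without overlap. Of 16 glycogen genes, 11 fell (68.8%) and 1 rose (6.25%), beside 31.7% and 27.5% of all genes (median -0.38). The liver-type phosphorylase Pygl fell 2.47-fold and the glycogen-targeting phosphatase subunit Ppp1r3b fell 3-fold, whereas Stbd1, which tethers glycogen for lysosomal breakdown, rose 3.15-fold to 22.5 ± 2.1 CPM. In the muscle-adjusted fit 5 glycogen genes fell, and without KO_RT replicates 1, 3 and 4 7 did.

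Insulin signalling genes changed in both directions: 11 of 26 rose (42.3%) and 9 fell (34.6%), beside 27.5% and 31.7% of all genes. Their median was 0.14. The adaptor Irs2 was at 48.2, 41.1, 70.6, 20.9 and 43 CPM in KO_RT and 423, 432, 399.8, 462 and 450.2 CPM in KO_cold (9.68-fold, log2 change 3.28 ± 0.296, edgeR adjusted p = 5.38e-08). The kinase Akt2 fell from 338 ± 7.2 to 155 ± 6.52 CPM (2.18-fold), with 328 to 346 CPM in KO_RT and 147 to 162 CPM in KO_cold. The regulatory subunit Pik3r1 of PI3-kinase was at 65.5, 221, 116, 201 and 208 CPM in KO_RT and 55.3, 42.3, 41.7, 38.1 and 35.6 CPM in KO_cold, 3.81-fold lower. The receptor Insr fell 1.43-fold, and Foxo1, the factor that insulin excludes from the nucleus, rose 1.84-fold with overlapping groups.

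Few genes of mitochondrial respiration were called. Of 28 nuclear-encoded subunits 1 rose and 2 fell (median 0.02), of 19 genes of the TCA cycle 2 rose and 2 fell (median -0.04), and of 13 mitochondrially encoded genes none rose and 1 fell. Against 27.5% and 31.7% of all genes these shares are low, and no more than 4, 3 and 2 genes of these lists were called in either direction under any alternative run. Cytochrome c, Cycs, rose 1.32-fold (530.5 to 588 CPM in KO_RT, 702 to 778 CPM in KO_cold) and fumarase, Fh1, rose 1.46-fold. The mitochondrial gene called lower, mt-Nd6, lies on the other strand from most of its neighbours; its log2 change of -1.21 was -0.31 when both strands were counted.

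**Figure D4:**
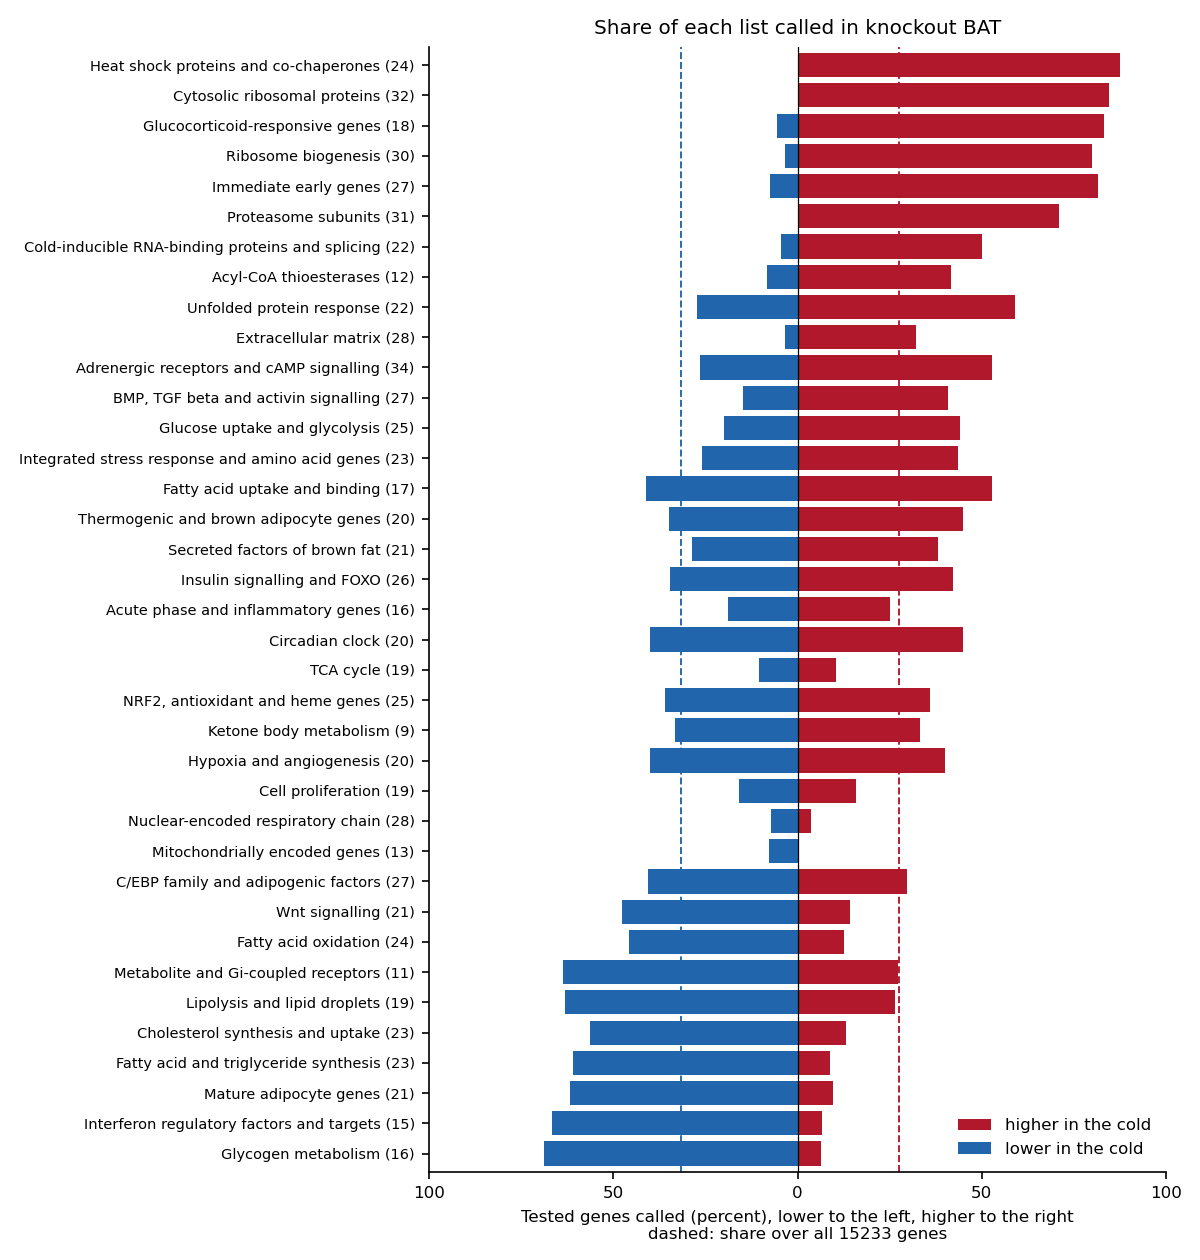
Share of tested genes called higher (bars to the right) and lower (bars to the left) in the cold in knockout BAT, in percent (x axis), for 37 gene lists (y axis) with the number of tested genes in each. Dashed lines mark the shares over all 15233 genes, 27.5% higher and 31.7% lower; heat shock proteins reach 87.5% higher, and the respiratory chain has 3.57% higher and 7.14% lower.

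Chaperone genes had the highest share of genes called higher among the 37 lists. Of 24 heat shock proteins and co-chaperones 21 rose (87.5%) and none fell, with a median change of 1.49. Hsph1, a nucleotide exchange factor for HSP70, was at 29, 35.4, 42.9, 31 and 29.8 CPM in KO_RT and 306, 254, 215, 302 and 373 CPM in KO_cold (8.63-fold, edgeR adjusted p = 5.61e-10). The constitutive HSP70 gene Hspa8 rose from 371 ± 59.2 to 2128 ± 287 CPM (5.73-fold), Hsp90aa1 rose 5.31-fold, Dnaja1 4.19-fold and the small heat shock protein Hspb1 2.78-fold, all without overlap. The inducible gene Hspa1b was at 0.391, 0.294, 0.444, 0.546 and 0.505 CPM in KO_RT and 8.86, 16.1, 3.87, 6.71 and 13.6 CPM in KO_cold (22.6-fold); Hspa1a is a near-identical copy and how reads split between them is uncertain. Hsf1, the factor that drives this response, was at 12.6 ± 1.04 and 13.3 ± 1.35 CPM and did not pass the test on the counted strand, while with both strands counted it changed by 0.37 (adjusted p = 0.000609).

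Promoter windows of 3 chaperone genes are shown because they hold the heat shock element in its shortest form, GAANNTTC, with the 2 inverted repeats in capitals (GRCm38.p6, RefSeq).
Hspa1b, chr17:34959239-34959488, minus strand: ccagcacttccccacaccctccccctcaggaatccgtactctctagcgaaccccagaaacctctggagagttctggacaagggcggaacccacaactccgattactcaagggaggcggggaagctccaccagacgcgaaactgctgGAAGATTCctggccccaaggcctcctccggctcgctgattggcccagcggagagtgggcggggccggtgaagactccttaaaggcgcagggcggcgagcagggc
Hspb1, chr5:135887669-135887918, plus strand: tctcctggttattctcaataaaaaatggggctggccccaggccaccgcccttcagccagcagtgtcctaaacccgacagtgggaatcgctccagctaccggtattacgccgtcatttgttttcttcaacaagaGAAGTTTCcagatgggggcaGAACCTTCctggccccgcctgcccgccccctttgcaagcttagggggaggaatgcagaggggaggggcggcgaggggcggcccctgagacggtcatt
Dnaja1, chr4:40722218-40722467, plus strand: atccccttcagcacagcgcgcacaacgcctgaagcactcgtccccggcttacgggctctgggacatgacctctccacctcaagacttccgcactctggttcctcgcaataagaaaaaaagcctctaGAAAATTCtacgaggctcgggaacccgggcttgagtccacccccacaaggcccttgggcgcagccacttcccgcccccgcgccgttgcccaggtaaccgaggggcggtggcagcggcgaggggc
The motif reads the same on both strands. It was found in 6.7% of all 32851 windows. By gene, any window counting, it was found in 7.7% of 27025 genes and in 6 of the 17 heat shock genes that had a window. Hspb1 holds 2 copies, which begin 117 and 97 bases before the start.

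In another branch of protein quality control, the unfolded protein response, 13 of 22 genes rose (59.1%) and 6 fell (27.3%). The shares over all genes were 27.5% and 31.7%, and the median of the list was 0.39. The luminal chaperone Hspa5 (BiP) rose from 367 ± 26 to 641 ± 47.7 CPM (1.75-fold) and Canx 1.81-fold, while Xbp1, a transcription factor of this response, was at 51.3, 82.9, 53.5, 94.5 and 112 CPM in KO_RT and 32.3, 31.4, 29.5, 27.7 and 31 CPM in KO_cold (2.59-fold lower, edgeR adjusted p = 9.22e-05), and Herpud1 fell 1.76-fold. In the integrated stress response, Atf4 rose 2.22-fold and the amino acid transporter chain Slc3a2 rose from 44.4 ± 11.7 to 185 ± 21.9 CPM (4.17-fold), but Ddit3 (CHOP) fell 1.49-fold and Asns was at 58.7 ± 2.32 and 55.2 ± 4.68 CPM (edgeR adjusted p = 0.355). Hmox1, which breaks down heme, was at 28.2, 15.3, 8.81, 9.77 and 9.65 CPM in KO_RT and 331, 282, 352, 410.0 and 334 CPM in KO_cold (23.8-fold). The sulfiredoxin Srxn1 rose from 51.8 ± 5.32 to 282 ± 39.6 CPM (5.44-fold). Over the 25 NRF2, antioxidant and heme genes, however, 9 rose and 9 fell (36.0% each), beside 27.5% and 31.7% of all genes. The number that fell was 4 in the muscle-adjusted fit, 3 without KO_RT replicates 1, 3 and 4, and 5, 4 and 5 without KO_RT replicate 2, KO_RT replicate 3 or KO_cold replicate 1 alone. Of 31 proteasome subunits 22 rose (71.0%) and none fell, by at most 0.57 on the log2 scale, the value of Psmc4.

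Genes that make ribosomes rose. Of 30 ribosome biogenesis genes 24 rose (80.0%) and 1 fell (median 0.68), led by Nop2, an rRNA methyltransferase (25.6 ± 2.28 to 70.4 ± 5.12 CPM, 2.75-fold), and Rrp12 (2.74-fold). Polr1a, the largest subunit of RNA polymerase I, rose 2.21-fold (edgeR adjusted p = 3.36e-11), and Dkc1, of the pseudouridine-forming snoRNPs, fell 1.51-fold. Of 32 cytosolic ribosomal protein genes 27 rose (84.4%) and none fell, with a small median of 0.27. The number that rose was 12 in the muscle-adjusted fit and 27 with another scaling of the libraries (RLE). The scaling factors of the main fit did not overlap between groups, at 1.003 to 1.063 in KO_RT and 0.91 to 0.976 in KO_cold. The part of scaling in such small shifts was not tested further.

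Clock genes changed in both directions, 9 of 20 up (45.0%) and 8 down (40.0%), beside 27.5% and 31.7% of all genes. In the muscle-adjusted fit 5 were down. Arntl (BMAL1) was at 14.5, 8.37, 11.2, 8.89 and 11.6 CPM in KO_RT and 54.1, 49.2, 56.2, 45.7 and 52.3 CPM in KO_cold (4.72-fold, edgeR adjusted p = 2.49e-07). Nfil3 rose 4.88-fold, Cry1 3.26-fold, Per1 3.88-fold and Per2 3.02-fold. Per3 went the other way, with 14, 24.8, 14.7, 20.4 and 16.9 CPM in KO_RT and 2.98, 2.63, 2.83, 2.91 and 2.55 CPM in KO_cold (6.53-fold lower), as did the output factors Dbp (3.12-fold) and Hlf (2.93-fold). The labels do not give the hour at which the groups were taken, so cold and time of day cannot be told apart in these genes. The cold-inducible RNA-binding proteins parted, with Cirbp 2.62-fold lower and Rbm3 1.31-fold higher, the latter not called in the muscle-adjusted fit, where its log2 change was 0.36 (adjusted p = 0.0557) against 0.39. Of 18 glucocorticoid-responsive genes 15 rose (83.3%) and 1 fell (median 1.02). Zbtb16 rose from 6.55 ± 3.21 to 58.8 ± 20.9 CPM (8.97-fold), Fkbp5, which restrains the glucocorticoid receptor, 4.66-fold, the cell cycle inhibitor Cdkn1a 4.77-fold and the kinase Sgk1 2.61-fold, all without overlap. Per1, Dusp1 and Cebpd belong to this list and also respond to other signals.

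Of 27 genes of the C/EBP family and other adipogenic factors, 8 rose (29.6%) and 11 fell (40.7%), with a median of -0.21. The shares over all genes were 27.5% and 31.7%. Cebpa (chromosome 7, 35119293 to 35121928, plus strand) was at 490.1, 527, 478, 554 and 553 CPM in KO_RT and 106, 98, 90.9, 96.2 and 122 CPM in KO_cold, a fall of 5.06-fold (log2 change -2.34 ± 0.24, edgeR adjusted p = 1.97e-07), while Cebpd rose 2.98-fold to 4.85 ± 0.769 CPM. Pparg was at 199, 230.3, 222, 212 and 216 CPM in KO_RT and 163, 149, 163, 177 and 152 CPM in KO_cold, 1.34-fold lower without overlap. Its partner Rxra fell 1.77-fold, Zfp423, a factor of preadipocyte commitment, fell 2.22-fold, and Stat5a, which carries growth hormone signals, fell from 46.3 ± 6.48 to 5.87 ± 0.706 CPM (7.89-fold). Of 21 mature adipocyte genes 13 fell and 2 rose (median -0.43); adiponectin, Adipoq, fell 1.31-fold (882 to 993 CPM in KO_RT, 616 to 782 CPM in KO_cold). Leptin, Lep, fell 7.28-fold to 0.155 to 1.04 CPM, a call that ended in the muscle-adjusted fit (log2 change -2.10, adjusted p = 0.0539). The white adipocyte markers fell in 3 of 7 tested members, and in none in that fit.

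Many receptors for metabolites couple to Gi and hold back lipolysis. Of 11 tested members of the list of metabolite and Gi-coupled receptors 7 fell (63.6%) and 3 rose, with a median of -1.55. The lactate receptor Hcar1 (chromosome 5, 123876736 to 123880020, minus strand) was at 42.7, 63.6, 40.7, 66.5 and 51.7 CPM in KO_RT and 5.52, 4.82, 2.94, 4.42 and 7.26 CPM in KO_cold, 10.6-fold lower (edgeR adjusted p = 3.81e-08). Its neighbour Hcar2, the receptor for beta-hydroxybutyrate and niacin, fell 6.01-fold to 0.829 ± 0.0845 CPM; the copies are similar in sequence, so that some reads may be split. The adenosine receptor Adora1 was at 112, 141, 134, 130.3 and 105 CPM in KO_RT and 34.6, 31.9, 26.2, 33.3 and 30.1 CPM in KO_cold (3.99-fold), the prostaglandin E2 receptor Ptger3 fell 2.71-fold, and the apelin receptor Aplnr fell 9.18-fold. Ffar4, a receptor for long-chain fatty acids, rose from 42 ± 14.5 to 139 ± 27.6 CPM (3.31-fold).

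Immune genes were low in these libraries, and several changes rested on 1 library. Cd274, the checkpoint ligand PD-L1 (chromosome 19, 29367455 to 29388095, plus strand), was an exception, at 87.2, 113, 65, 81.9 and 139.8 CPM in KO_RT and 12.5, 9.76, 10.9, 6.8 and 16.5 CPM in KO_cold, 8.63-fold lower (log2 change -3.11 ± 0.252, edgeR adjusted p = 1.26e-08). Of 15 interferon regulatory factors and targets 10 fell and 1 rose, and KO_RT replicate 2 stood apart: Ifit3 was at 2.37, 28.3, 3.07, 2.09 and 4.1 CPM in KO_RT and 2.72, 1.73, 1.86, 1.86 and 1.87 CPM in KO_cold, and the chemokine Cxcl10 at 0.0977, 16.2, 0.341, 0.728 and 2.85 and 0.567, 0.235, 0.0744, 0.216 and 0.237 CPM. Without KO_RT replicate 2 only 2 genes of the list fell, with the 10 knockout libraries fitted alone 6 fell, and Ifit3 changed by -0.50 (adjusted p = 0.22) and Cxcl10 by -1.84 (adjusted p = 0.0657). That library was also the highest of the KO_RT group for the T and NK cell markers, with a mean of -0.303 against -1.92 to -1.02 log2 CPM. Tbx21, the T-box factor T-bet of lymphocytes, was at 1.03, 1.18, 0.922, 0.819 and 1.04 CPM in KO_RT and 39.2, 38.3, 39.3, 40.5 and 32 CPM in KO_cold, 38-fold higher with narrow groups (edgeR adjusted p = 7.52e-08). The lymphocyte markers did not rise with it: none of 11 tested T and NK cell markers rose and 2 fell (0 with the knockout libraries fitted alone, 4 and 5 without KO_RT replicate 1 or 4), their sum was 3.37 to 12.4 CPM in KO_RT and 3.01 to 5.88 CPM in KO_cold, Cd3e was at 0.0911 to 0.562 and 0.149 to 0.371 CPM, and perforin Prf1 fell 4.68-fold to 0.0309 to 0.148 CPM. Of 7 tested B cell markers 6 fell (3 in the muscle-adjusted fit), among them Ms4a1 (CD20), from 0.543 ± 0.117 to 0.143 ± 0.0804 CPM. Macrophage markers showed 4 of 14 higher (28.6%, near the 27.5% of all genes) and none lower. In the muscle-adjusted fit 2 were higher and 1 lower, and 2 were lower without KO_RT replicate 1. Mertk, a receptor for dying cells, rose 2.13-fold, and Lyz2 was at 39.9 to 68.4 CPM in KO_RT and 37.6 to 51.9 CPM in KO_cold.

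Vessel genes included a list of 16 tested endothelial markers, of which 9 rose and 4 fell; 2 fell when KO_RT replicate 5 or KO_cold replicate 2, 3 or 4 was left out. Among the 9 that rose, the tight junction protein Cldn5 rose 2.78-fold, Pecam1 from 129 ± 12.6 to 239 ± 12.5 CPM and the lymphatic marker Lyve1 3.26-fold. The 2 angiopoietins, ligands of one receptor, moved apart. Angpt2, which loosens vessels, was at 2.03, 1.55, 1.95, 1.46 and 1.93 CPM in KO_RT and 9.37, 6, 9.89, 7.64 and 12.1 CPM in KO_cold (5.05-fold higher), and Angpt1, which steadies them, was at 17.3, 26.6, 17.7, 37.4 and 26.5 CPM in KO_RT and 6.39, 4.12, 4.76, 4.05 and 3.32 CPM in KO_cold (5.54-fold lower, edgeR adjusted p = 6.57e-08). Vegfa rose 1.38-fold. Of 12 smooth muscle and pericyte markers 3 rose and 2 fell, and their mean was 5.04 ± 0.0736 in KO_RT and 5.19 ± 0.0954 in KO_cold (log2 CPM, exact permutation p = 0.0397, adjusted p = 0.0964). The pericyte marker Cspg4 (NG2) was one of those that fell, from 64.3 ± 7.08 to 18.1 ± 1.97 CPM (3.55-fold). In the matrix list, 9 of 28 rose (32.1%, near the 27.5% of all genes) and 1 fell, and 15 rose without KO_RT replicate 4. Of its members, the basement membrane collagens Col4a1 and Col4a2, which share a bidirectional promoter region, rose 3.57-fold (478 to 684 CPM in KO_RT, 1958 to 2139 CPM in KO_cold) and 3.15-fold, the laminin chain Lamb1 rose 2.81-fold and Lama4 fell 2.12-fold.

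Among signals between cells, the BMP, TGF beta and activin list had 11 of 27 genes that rose (40.7%) and 4 that fell (14.8%). Follistatin, Fst, which binds activins, was at 8.4, 6.47, 6.93, 8.53 and 8.85 CPM in KO_RT and 62.9, 148, 173, 79.2 and 94.4 CPM in KO_cold (14.2-fold, edgeR adjusted p = 1.83e-07), and the BMP antagonist noggin, Nog, was at 0.0802 to 0.486 CPM in KO_RT and 2.16 to 4.08 CPM in KO_cold (10.6-fold). The ligand Gdf5 fell to 0.0889 to 0.388 CPM from 1.93 to 6.12 CPM (18.7-fold), and the type I receptor Acvr1c (ALK7), which holds back lipolysis, fell 2.27-fold. In the Wnt list 10 of 21 fell (47.6%) and 3 rose (14.3%), beside 31.7% and 27.5% of all genes. The fall was led by Frat1, an inhibitor of GSK3, at 5.23, 7.57, 4.91, 6.04 and 4.93 CPM in KO_RT and 0.597, 0.392, 0.669, 0.526 and 0.741 CPM in KO_cold (9.8-fold, edgeR adjusted p = 7.7e-10). Of 21 secreted factors of brown fat 8 rose (38.1%) and 6 fell (28.6%), beside 27.5% and 31.7% of all genes, and in the muscle-adjusted fit 5 rose and 3 fell. The growth factor Fgf9 rose from 2.42 ± 0.958 to 26.2 ± 3.21 CPM (10.8-fold), the meteorin-like protein Metrnl 2.28-fold, and Fgf21 was at 0.0683 to 0.44 CPM in KO_RT and 0.495 to 1.25 CPM in KO_cold, a call that ended in the muscle-adjusted fit (log2 change 1.14, adjusted p = 0.186).

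The leading genes outside these lists were ranked among genes whose log2 CPM had an SD under 0.5 in both groups, at least 5 CPM and no overlap, a limit on spread that none of the 15 muscle genes met. Cars2, the mitochondrial cysteinyl-tRNA synthetase, was at 47, 23, 30.8, 25.3 and 34.9 CPM in KO_RT and 455, 557, 513, 398 and 575 CPM in KO_cold (15.5-fold higher, edgeR adjusted p = 5.74e-10). Npr3, the clearance receptor for natriuretic peptides, was at 87, 68.2, 74.8, 112 and 94.9 CPM in KO_RT and 948, 921, 925, 583 and 549.5 CPM in KO_cold (8.98-fold). Zdbf2, an imprinted gene, rose 11.5-fold, the sialidase Neu3 7.91-fold, Litaf, a protein of late endosomes, 7.82-fold, the chondroitin sulfotransferase Chst11 6.7-fold, and the deubiquitinase Usp2 6.42-fold. Perm1, known from muscle as a target of PGC-1 alpha, rose from 21.9 ± 5.73 to 136 ± 44 CPM (6.19-fold). On the falling side, Nr3c2, the mineralocorticoid receptor, was at 8.57, 15.3, 11.8, 10.6 and 10.8 CPM in KO_RT and 1.61, 1.45, 1.3, 1.92 and 1.9 CPM in KO_cold (6.98-fold lower, edgeR adjusted p = 5.99e-11). P2rx5, a purinergic channel of brown adipocytes, fell from 67.2 ± 11.9 to 10 ± 1.45 CPM (6.71-fold), Nav2 fell 7.93-fold, Kbtbd11 6.91-fold, B3galt2 7.29-fold, Pnldc1 8.15-fold and Tmem131l 6.55-fold. Among these 30 genes, 3 pairs lie within 50 kb of each other, and each pair moved the same way. Cars2 and Ing1 (6.79-fold higher) are on opposite strands of chromosome 8 with 4787 bases between them, AW011738 (7.45-fold higher) and Perm1 are on 1 strand of chromosome 4 with 10716 bases between them, and Xrcc3 (6.32-fold lower) and Zfyve21 (6.08-fold lower) start 296 bases apart on opposite strands of chromosome 12. Reads were counted by strand, and with both strands counted the log2 change of Xrcc3 was -1.68 in place of -2.65.

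The response was set against that of wild-type mice with a test of the difference between the 2 log2 changes. Of the 15233 genes, 113 (0.742%) passed it: 65 with a higher and 48 with a lower change in the knockout. Of these 113, 26 moved the same way in both genotypes and further in the knockout, 8 moved the same way and further in the wild type, 32 were called in the knockout alone, 33 in the wild type alone, and 14 were called in opposite directions. Without WT_RT replicate 4 and WT_cold replicate 5, 45 genes with a higher and 29 with a lower change in the knockout passed. These 2 are named the intermediate WT libraries below, and no value given here measures how far they lie between the groups.

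**Figure D5:**
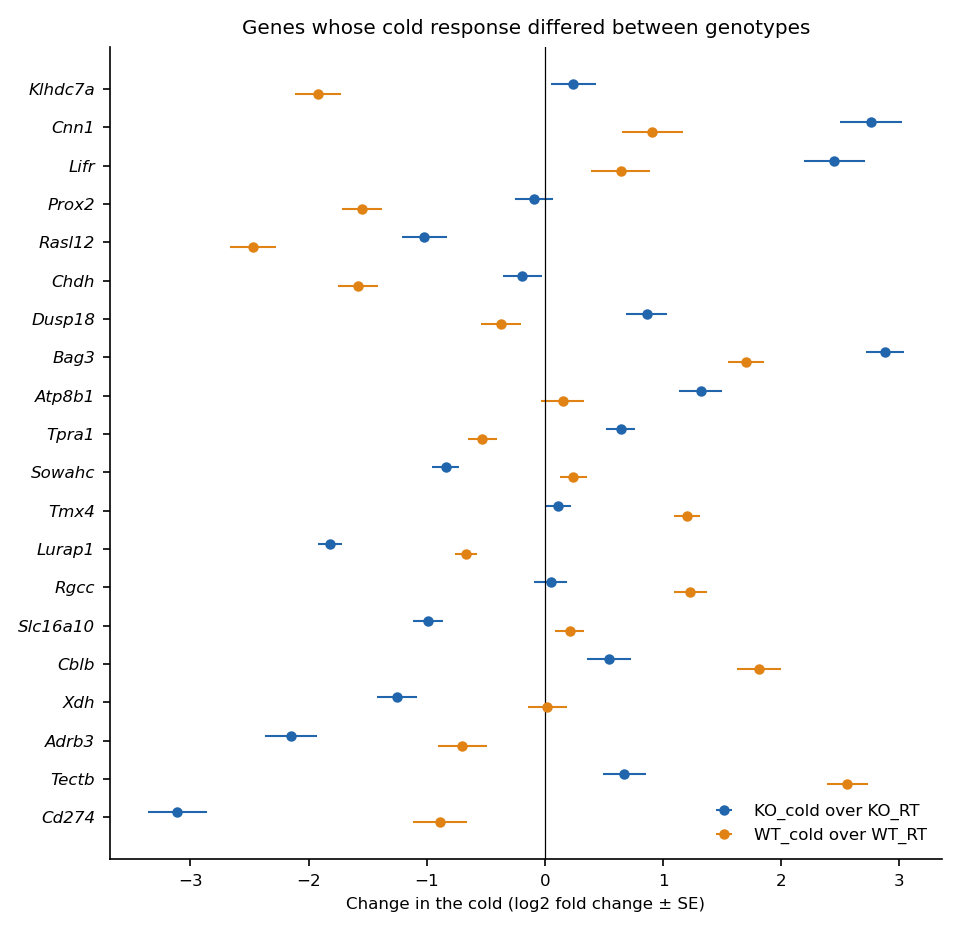
Log2 change in the cold ± SE in knockout and in wild-type BAT (x axis) for the 10 genes with the largest positive and the 10 with the largest negative difference between genotypes among genes of at least 5 CPM that passed the test of the difference (y axis). Cd274 lies at -3.11 in the knockout and -0.89 in the wild type, and Klhdc7a at 0.24 and -1.92.

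Among genes whose fall was deeper in the knockout, Cd274 changed by -3.11 ± 0.252 in KO and -0.89 ± 0.228 in WT, where it was at 109 to 139 CPM in WT_RT and 47.8 to 98.7 CPM in WT_cold (difference -2.22 ± 0.331, edgeR adjusted p = 0.00373). Adrb3 was at 64.9 to 115 CPM in WT_RT and 50.3 to 67.8 CPM in WT_cold, a change of -0.70 against -2.15 in KO (difference -1.44 ± 0.295, edgeR adjusted p = 0.0261); this call ended without the 2 intermediate WT libraries (adjusted p = 0.0754) and in 4 other alternatives. Lurap1, an activator of NF-kappa B signalling, fell by 1.82 in KO and by 0.67 in WT (edgeR adjusted p of the difference = 0.000333). The insulin receptor Insr was called lower in KO alone, with a change of -0.52 against 0.11 in WT (edgeR adjusted p of the difference = 0.0173), and so were Xdh, xanthine dehydrogenase, and the aromatic amino acid transporter Slc16a10, with -1.25 and -0.99 against 0.02 and 0.21. The Xdh difference did not pass without the 2 intermediate WT libraries (adjusted p = 0.0633). Sowahc changed by -0.84 and 0.24.

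Some genes rose further in the knockout. The co-chaperone Bag3 was at 34.8, 27.2, 40.5, 31.2 and 32.1 CPM in KO_RT and 221, 274, 241, 220.2 and 265 CPM in KO_cold, and at 34.8 to 42.2 CPM in WT_RT and 72.2 to 160.2 CPM in WT_cold (difference 1.18 ± 0.212, edgeR adjusted p = 0.012), the only tested heat shock gene that passed. Srxn1 rose by 2.44 in KO and 1.31 in WT (edgeR adjusted p of the difference = 0.00412). Cnn1, calponin of smooth muscle, was at 22.9, 32, 18.5, 13.9 and 14 CPM in KO_cold after 2.59 to 3.46 CPM in KO_RT, and rose by 2.76 against 0.91 in WT (edgeR adjusted p of the difference = 0.0202, and 0.0632 with no expression filter). Lifr, the receptor for leukemia inhibitory factor, was at 119, 302, 289, 323 and 119 CPM in KO_cold, where replicates 1 and 5 lie well below the other 3, and rose by 2.45 against 0.64 (edgeR adjusted p of the difference = 0.0208, and 0.0648 without the 2 intermediate WT libraries). The fibroblast factor Twist2 rose by 2.27 against 0.62, a difference that did not pass with both strands counted (adjusted p = 0.276), and the BMP receptor Bmpr1a by 0.94 against 0.15. Junb rose by 1.92 against 0.77 (edgeR adjusted p of the difference = 0.0296) and was the only tested immediate early gene that passed, with a call that ended in 16 of 27 alternatives (adjusted p up to 0.123). Nr4a2 did not, with 3.80 against 2.51 (edgeR adjusted p = 0.179). Tbx21 and Fst missed the threshold as well, with 5.24 against 2.37 and 3.83 against 1.70 (edgeR adjusted p = 0.0677 and 0.0662).

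A further set moved in the wild type and not, as a call, in the knockout. Klhdc7a was at 195 to 385 CPM in KO_RT and 257 to 365 CPM in KO_cold, but fell from 146 to 250.3 CPM in WT_RT to 40 to 67 CPM in WT_cold (difference 2.16 ± 0.272, edgeR adjusted p = 0.000853). Without KO_RT replicate 4 it was called higher in KO (log2 change 0.45, adjusted p = 0.0319). Chdh, choline dehydrogenase, and Prox2 behaved alike, with -0.19 and -0.09 in KO against -1.58 and -1.55 in WT. Rgcc, a regulator of the cell cycle, and the thioredoxin-like Tmx4 rose in WT by 1.23 and 1.20 and changed by 0.05 and 0.11 in KO. Tectb was called higher in both, by 0.67 in KO and 2.56 in WT (difference -1.89 ± 0.249, edgeR adjusted p = 0.000722). Zic1 and Tpra1 were called in opposite directions: they rose by 0.47 and 0.64 in KO and fell by 0.39 and 0.53 in WT. The Zic1 difference (edgeR adjusted p = 0.0243) did not pass in 3 alternatives that left out 1 library each (adjusted p = 0.0502 to 0.0538). Trib1, a pseudokinase that promotes degradation of C/EBP alpha, was at 27.7 to 41.4 CPM in KO_RT and 24.1 to 35.9 CPM in KO_cold against 72 to 101 CPM in WT_RT and 118 to 167 CPM in WT_cold, and its rise in WT was not called in KO (edgeR adjusted p of the difference = 0.012). In the muscle-adjusted fit Trib1 was called lower in KO (log2 change -0.47, adjusted p = 0.0232). By contrast the changes of Cebpa, -2.34 in KO and -1.99 in WT, gave a difference of -0.35 ± 0.324 that did not pass (edgeR adjusted p = 0.794), and the difference for Ucp1 was 0.21 ± 0.163 (edgeR adjusted p = 0.732).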

How the data were processed

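Per the labels' protocols, a PureLink kit gave the RNA of brown adipose tissue and KAPA's stranded mRNA kit the libraries. Trim Galore 0.6.0, STAR 2.7.8a and GRCm38.p6 are named in the submitters' processing notes; the annotation release is not given in the sources used here, and gene places are from GENCODE M21. The authors deposited raw counts per gene, of which the reverse-strand column was used. The 4 entries that name no gene were left out (in the 10 knockout libraries multimapped 19.15% to 21.41%, unmapped 4.00% to 4.86%, no feature 3.14% to 4.22%, ambiguous 1.02% to 1.09%). Of 55471 gene IDs, 55144 had a symbol.

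The 20 libraries were grouped by their labels and fitted in 1 model of 4 groups with edgeR 4.0.16 (R 4.3.3, limma 3.58.1; filterByExpr with a minimum count of 10 and total of 15, TMM, robust quasi-likelihood fit, 16 residual degrees of freedom, biological coefficient of variation 15.3%), with Benjamini-Hochberg adjustment over 15233 genes at 0.05. CPM used TMM library sizes, and log2 CPM a prior count of 2. Library measures were compared by a two-sided exact permutation test. DESeq2 1.42.0, other scalings, filters, strands and left-out libraries were the alternatives. The procedure was also run on simulated counts in which few genes changed. That run does not measure the error rate where most genes are called, as here. No 2 libraries of a group agreed within counting noise (chi-square per degree of freedom 16.35 to 54.24 over 20 pairs).

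Named genes are the 15 largest changes in each direction with at least 5 CPM and no overlap between groups, the same 15 among genes with an SD under 0.5, the 10 largest differences between genotypes in each direction, and members of the lists. Members and lists were chosen with earlier results of these data known. Promoter windows are from RefSeq (GRCm38.p6).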

Additional observations from a re-analysis of the deposited data

Results flagged for a closer look

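In 428 groups of 5 libraries 19 held a library far from the other 4, a gap that chance gives in about 5% of groups. These 19 are thus no more than chance would give. KO_RT replicate 2 and KO_cold replicate 5 account for 5 each. In KO_RT replicate 2, Cxcl10 was at 16.2 CPM against 0.0977 to 2.85 CPM in the other 4, Ifit3 at 28.3 against 2.09 to 4.1, the macrophage gene Lyz2 at 68.4 against 39.9 to 45.3, the luminal chaperone Hspa5 at 321.7 against 370.8 to 388.3, and the macrophage marker mean at 3.15 against 2.61 to 2.72 log2 CPM. In KO_cold replicate 5, Egr1 was at 19.7 CPM against 5.92 to 9.31 and Btg2, an antiproliferative early gene, at 35.8 against 22.4 to 25.8, while Asns was at 47.1 against 56.0 to 59.2, Tbx21 at 32.0 against 38.3 to 40.5 and Twist2 at 2.16 against 3.52 to 3.94.

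KO_RT replicate 3 was the high library for Mfsd2a (22.5 CPM against 0.963 to 3.34), Foxo1 (111.1 against 64.5 to 77.6) and the clock gene Per1 (31.7 against 9.77 to 12.9). KO_RT replicate 4 was high for Klhdc7a (385.3 CPM against 195.2 to 247.5) and Zbtb16 (12.0 against 3.61 to 5.9) and low for the B cell marker mean (-0.821 against -0.507 to -0.384 log2 CPM). KO_cold replicate 4 was high for Ppargc1a (2406.7 CPM against 1167.2 to 1346.6) and for Perm1 (213.4 against 107.2 to 125.1). KO_cold replicate 1 was high for Ifit3 (2.72 CPM against 1.73 to 1.87).

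For 25 named genes the test of the difference between genotypes passed. The log2 change in the knockout was higher than in the wild type by 2.16 in Klhdc7a, 1.85 in Cnn1, 1.81 in Lifr, 1.65 in Twist2, 1.46 in Prox2, 1.39 in Chdh, 1.18 in Bag3, 1.17 in Tpra1, 1.16 in Usp2, 1.15 in Junb, 1.13 in Srxn1, 0.86 in Zic1, 0.82 in AW011738 and 0.79 in Bmpr1a. The difference was -2.22 in Cd274, -1.89 in Tectb, -1.44 in Adrb3, -1.27 in Xdh, -1.20 in Slc16a10, -1.17 in Rgcc, -1.15 in Lurap1, -1.08 in Sowahc and in Tmx4, -0.98 in Trib1 and -0.63 in Insr. The difference of Usp2 did not pass in 2 alternatives (adjusted p = 0.0533 and 0.0632).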

How the results depend on the processing

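The counts of genes that rose and fell in the knockout stayed within 1.5 times those reported under every alternative run, and no result changed sign. Leaving out 1 library gave 4227 to 4357 genes higher and 4303 to 4460 lower, and 779 to 871 and 1335 to 1507 at 2-fold or more. The test of the difference between genotypes moved more, with 44 to 74 higher and 33 to 58 lower when 1 library was left out, 129 and 140 with DESeq2, 40 higher with no expression filter and 29 lower without both intermediate WT libraries. That last alternative and the one without KO_RT replicates 1, 3 and 4 were chosen after seeing the data. The cause of these shifts was not tested. Same-numbered KO_RT and KO_cold libraries did not deviate together (r = 0.0287, -0.033, 0.00551, 0.0238 and -0.0139), so the numbers were not taken to pair them. With the replicate number as a block 4159 genes rose and 4799 fell, and the difference passed for 56 and 38. Depth limits the genes under 1 CPM, such as Fgf21 and Bdh1 at room temperature.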
